A study of Mus musculus with 6 samples.

Results

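Mitochondrial protein import, the chaperones that fold imported proteins and the proteases that remove faulty ones were examined as 1 group of 45 protein-coding genes among the 18828 genes of the table. All 26 genes whose names start with Timm or Tomm were taken, and 19 further chaperones, proteases, peptidase subunits and prohibitins were listed by name. Of the 45 members, 42 had enough reads to be tested. Tomm6, Tomm20l and Timm8a2 were too low, at no more than 0.301 CPM (counts scaled by library size) in any library. The low count of Tomm6 is uncertain, because 83.0% of its transcript is shared, on either strand, with 2 other genes. Its locus overlaps Tomm6os by 777 bases and Usp49 by 93 bases, both on the opposite strand, and these may be the same stretches. The cells were T cells from the spleens of wild-type FVB mice, kept in serum-containing RPMI medium with pyruvate and 2-mercaptoethanol. All received anti-CD3 and anti-CD28 beads, which trigger T cell activation. One group of 3 libraries (a to c) had 50 µM urolithin A, a gut bacterial metabolite of ellagitannins, for the same 48 h, and the other group of 3, the controls, had the solvent DMSO. The labels give no age, sex or number of mice and do not tie the letters to animals or cultures, so p-values here cover only the spread between these libraries, which may be technical.

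Most mitochondrial proteins are made in the cytosol and pass the outer membrane through the TOM complex. Proteins with a presequence then enter the matrix through the TIM23 translocase, pulled by the mitochondrial Hsp70, while carrier proteins are escorted by small TIM chaperones to the TIM22 translocase. The peptidase MPP cuts off presequences, Hsp60 and its cochaperonin Hsp10 fold the chains, and AAA+ proteases such as Lon, ClpXP and the m-AAA protease degrade damaged ones. Activated T cells build up mitochondria as they grow and divide.

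Library totals lay between 12738059 and 19081219 counts, and the lowest count of a tested member in any library was 60. Rn18s, a ribosomal RNA gene, took 17.6% of the counts in DMSO library b and 3.97% in urolithin A library a, against 0.0687% to 0.887% in the other 4. The T cell markers Cd3e, Cd3d, Cd3g and Cd2 were present in every library, and the summed level of the 9 T cell markers was 2466 to 2579 CPM in controls and 2412 to 2616 CPM in treated libraries. Of these, Lck was called lower and Cd4 higher. Summed B cell markers were higher, at 206 to 249 CPM against 162 to 179 CPM with DMSO, mostly from Ighm. Of these 6 markers 3 were called higher, where 17.7% of all genes tested were. The dendritic cell list summed to 9.58 to 9.98 CPM against 6.19 to 8.54 CPM, the NK cell list to 2.03 to 2.49 CPM against 1.39 to 2.12 CPM and the erythroid list to 2.15 to 3.24 CPM against 1.01 to 1.88 CPM. In these lists H2-Aa (log2 fold change 0.85, adjusted p = 7.91e-04) and Hbb-bs (0.88, adjusted p = 0.0345) were called higher, while Xcr1 was at -0.76 (adjusted p = 0.0527). Macrophage markers stayed at or below 0.75 CPM in sum, and of the neutrophil markers S100a9 had no count and S100a8 reached 0.0754 CPM in 1 library. The part of these other cells in the results below was not tested. In bulk RNA, fewer cells of a type and less RNA per cell cannot be told apart.

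Summed over the members, expression was lower with urolithin A. The summed level of the members was 5325, 5628 and 5450 CPM in DMSO libraries a to c, against 4305, 4110 and 4490 CPM in the treated ones, so every treated library lay below every control. In limma's voom fit over 14444 genes, with Benjamini-Hochberg adjustment over all of them and a threshold of 0.05, 23 of the 42 tested members (54.8%) were called lower, where 16.0% of all genes tested were. A single member, Clpx, was called higher, where 17.7% of all genes were. The median log2 fold change was -0.29 over the members and 0.01 over all genes, and 34 of the 42 members had a negative value. For 26 members (61.9%) all 3 treated values lay below all 3 controls, against 22.7% of all genes. For 2 members, Clpx and Pmpcb, they lay above, against 24.1%, and the groups overlapped for 14. The falls were moderate, since 5 of the called members fell by 1.5-fold or more and the largest, of Lonp1, was 48.2%. Of the 18 members not called, 11 had a negative and 7 a positive value, and for 17 the 95% interval lay within 1.5-fold of no change.

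The scaling of the libraries bears on the count. With scaling to total counts in place of trimmed means of M values, the median log2 fold change of all genes was 0.095 in place of 0.0064, 70.6% of called genes were higher in place of 52.6%, and 10 members (against 6.45% of all genes) were called lower. Those 10 were Tomm40, Tomm5, Timm50, Timm9, Timm10, Timm13, Hspa9, Lonp1, Afg3l2 and Phb2. Without the 2 libraries richest in Rn18s, 13 members were called lower, against 8.60% of all genes. The members' median log2 fold change was then -0.30. With median of ratios scaling 23 members were called lower, against 16.5% of all genes. With ribosomal RNA genes left out, 23 were called lower as well, against 15.9%. Tomm40, Tomm5, Timm50, Timm9, Timm13, Hspa9, Lonp1, Afg3l2 and Phb2 were called lower in all 17 alternatives run.

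**Figure D1:**
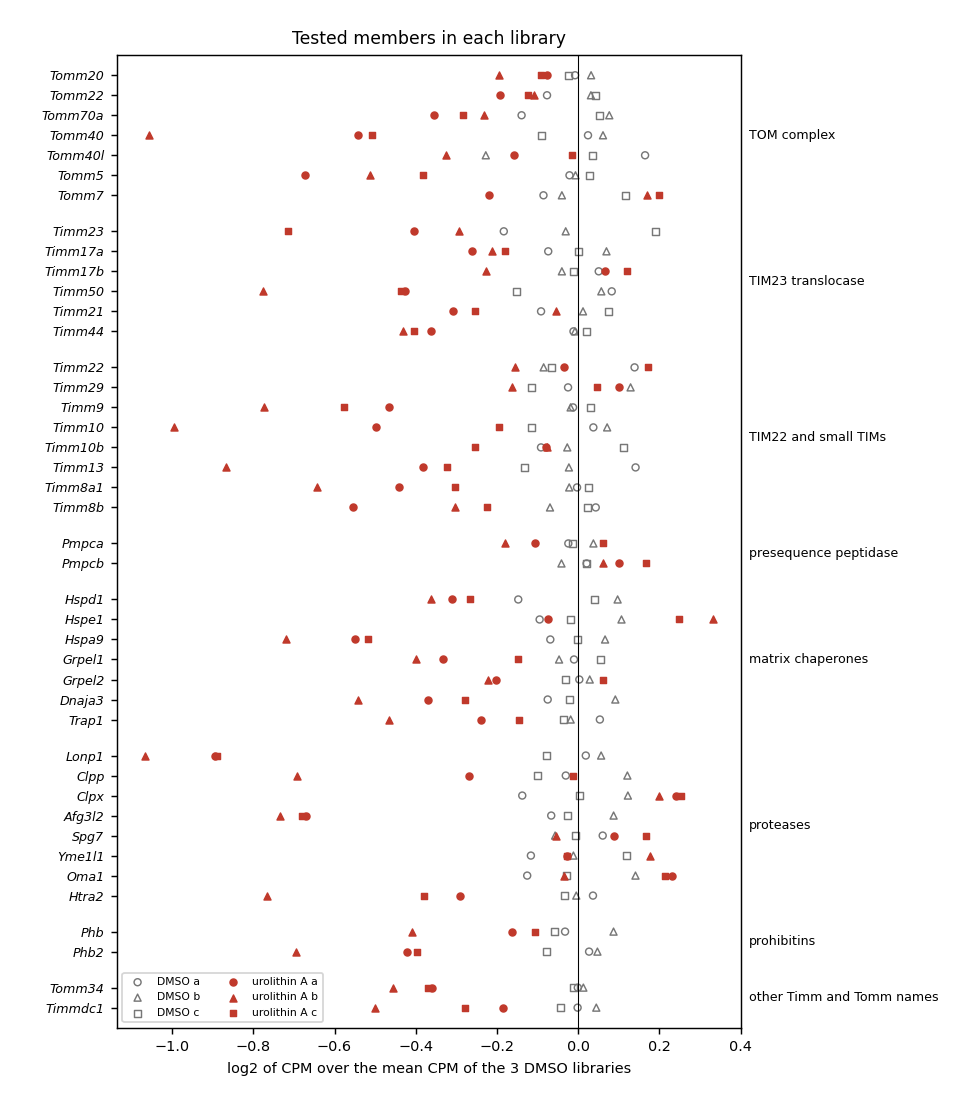
Each row is 1 tested member, grouped by role, and each symbol is its CPM in 1 library on a log2 scale relative to the mean of the 3 DMSO libraries (open grey, DMSO; filled red, urolithin A; the symbol's shape gives the letter). For 26 of the 42 members all filled symbols lie left of all open ones, and the triangle of urolithin A library b is the lowest of its group in 31.

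In the TOM complex, 3 of 7 tested members were called lower and none higher, with a median log2 fold change of -0.18. For this and the other roles, the shares over all genes tested were 16.0% called lower and 17.7% higher. Tomm40, the channel through which nearly all precursors pass, was at 150, 154 and 139 CPM in DMSO libraries a to c, against 101, 71.1 and 104 CPM in treated libraries a to c. The groups did not overlap, and urolithin A library b was lowest. The log2 fold change was -0.70 (SE 0.12, adjusted p = 0.00101). With 1 library left out it ran from -0.79 (without urolithin A library a) to -0.52 (without urolithin A library b). Its paralog Tomm40l stood at 11.8, 8.97 and 10.8 CPM against 9.42, 8.39 and 10.4 CPM, with overlapping groups (log2 fold change -0.18, adjusted p = 0.357). Of the Tomm40l transcript, 68.9% is shared with another gene, so its count is uncertain. Its locus overlaps that of Nr1i3 by 4691 bases on the opposite strand, and this may be the same stretch. Over all libraries Nr1i3 had 26 counts and Tomm40l 1002. Tomm5, a small subunit attached to the channel, was at 31.3 to 32.4 CPM in controls and 19.9 to 24.4 CPM in treated libraries and fell by 0.53 on the log2 scale (SE 0.10, adjusted p = 6.77e-04). Tomm7, another small subunit, was at 104, 107 and 119 CPM against 94.5, 124 and 126 CPM. It showed no separation, with a log2 fold change of 0.05 (95% interval -0.18 to 0.27).

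Among the TOM receptors, Tomm70a, which binds carrier precursors, was the one called. Its values were 382, 444 and 437 CPM in controls and 329, 359 and 346 CPM in treated libraries, which did not overlap (log2 fold change -0.29, SE 0.07, adjusted p = 0.00835). Without the 2 libraries richest in Rn18s the value was -0.23 (adjusted p = 0.171). Tomm20, the main presequence receptor, stood at 71.1, 73.0 and 70.2 CPM against 67.7, 62.4 and 67.1 CPM. All treated values were below the controls, but the log2 fold change of -0.12 (95% interval -0.28 to 0.04) was not called (adjusted p = 0.231). Tomm22, the central receptor that organises the complex, likewise lay below its controls at 104 to 111 against 113 to 123 CPM and was not called (log2 fold change -0.14, adjusted p = 0.146).

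In the TIM23 translocase all 6 members had a negative log2 fold change, 4 were called lower, and the median was -0.31. Timm50, the receptor facing the intermembrane space, was at 78.7 to 92.5 CPM in controls and 51.0 to 65.0 CPM in treated libraries (log2 fold change -0.54, SE 0.10, adjusted p = 9.02e-04). Timm44, which tethers the mitochondrial Hsp70 to the channel, was at 121 to 124 CPM against 90.6 to 94.99 CPM (log2 fold change -0.40, SE 0.07, adjusted p = 4.60e-04). Neither overlapped between groups, and Timm44 had a narrow spread in both. Timm23, the channel subunit, stood at 7.95, 8.83 and 10.3 CPM against 6.82, 7.37 and 5.50 CPM (log2 fold change -0.45, SE 0.16, adjusted p = 0.0380). Its call is weak: 95.6% of its transcript is shared with 4 other genes, 3 of them pseudogenes, so the count is uncertain. The adjusted p of Timm23 was 0.0704 without DMSO library b, 0.165 without DMSO library c, 0.0712 without urolithin A library a and 0.128 without urolithin A library c.

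The paired subunits Timm17a and Timm17b, alternative partners of Timm23, gave different calls. Timm17a was at 75.8, 83.8 and 79.8 CPM in controls and 66.6, 68.9 and 70.5 CPM in treated libraries, without overlap (log2 fold change -0.22, SE 0.07, adjusted p = 0.0362). Its adjusted p was 0.126 without DMSO library b, 0.0933 without DMSO library c, 0.111 without urolithin A library a and 0.0525 without urolithin A library c. Timm17b was at 44.2, 41.5 and 42.3 CPM against 44.6, 36.4 and 46.3 CPM, with overlapping groups (log2 fold change -0.02, 95% interval -0.22 to 0.19). The ratio of the pair overlapped between groups, so the difference between them was not shown. Timm21, which links the translocase to the TOM complex, was at 45.7 to 51.3 CPM against 39.3 to 46.9 CPM and was not called (log2 fold change -0.20, adjusted p = 0.098), while without urolithin A library b it was (adjusted p = 0.00912).

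On the carrier route, most small TIM chaperones were lower, and the TIM22 translocase showed no separation. Of 8 tested members 5 were called lower, all of them small TIMs, and the median log2 fold change was -0.42. Timm9 and Timm10 together form the hexamer that shields carrier precursors in the intermembrane space. Timm9 was at 31.5, 31.4 and 32.5 CPM in controls and at 23.0, 18.6 and 21.3 CPM in treated libraries (log2 fold change -0.60, SE 0.10, adjusted p = 3.00e-04). Timm10 was at 17.9, 18.3 and 16.1 CPM against 12.3, 8.73 and 15.2 CPM (log2 fold change -0.58, SE 0.16, adjusted p = 0.0126). Both were without overlap, Timm10 with a wider spread among the treated libraries. The adjusted p of Timm10 was 0.0516 without DMSO library a and 0.0751 without the 2 libraries richest in Rn18s. Its log2 fold change was -0.35 without urolithin A library b and -0.73 without urolithin A library c. Timm13, partner of Timm8a1 in a second such chaperone, was at 86.6 to 105 CPM against 52.0 to 75.8 CPM (log2 fold change -0.52, SE 0.13, adjusted p = 0.00805). With 1 library left out its log2 fold change ran from -0.61 (without urolithin A library c) to -0.34 (without urolithin A library b).

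Timm8a1 was at 5.57, 5.50 and 5.68 CPM in controls and 4.11, 3.57 and 4.52 CPM in treated libraries (log2 fold change -0.47, SE 0.16, adjusted p = 0.0374). Its groups did not overlap, but at this low level the call was lost on leaving out any 1 library except urolithin A library c, with adjusted p from 0.073 (without DMSO library b) to 0.115 (without urolithin A library b). It was 0.0838 without DMSO library a, 0.0949 without DMSO library c and 0.076 without urolithin A library a, and 43.1% of the transcript is shared with a pseudogene. Timm8b, its paralog, was at 35.3, 32.6 and 34.8 CPM against 23.3, 27.7 and 29.3 CPM (log2 fold change -0.37, SE 0.10, adjusted p = 0.00987, and 0.0677 without urolithin A library a). Timm10b, the small TIM that docks on TIM22, was at 18.6 to 21.4 CPM against 16.7 to 18.8 CPM and was not called (log2 fold change -0.13, adjusted p = 0.371).

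Timm22, the channel of the carrier translocase, was at 57.8, 49.5 and 50.2 CPM in controls and 51.3, 47.2 and 59.2 CPM in treated libraries. Timm29, a subunit that stabilises it, was at 41.9, 46.6 and 39.4 CPM against 45.7, 38.0 and 44.0 CPM. Both overlapped, with log2 fold changes of -0.01 (95% interval -0.22 to 0.20) and 0.00 (95% interval -0.20 to 0.21), whose sign changed between alternatives.

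**Figure D2:**
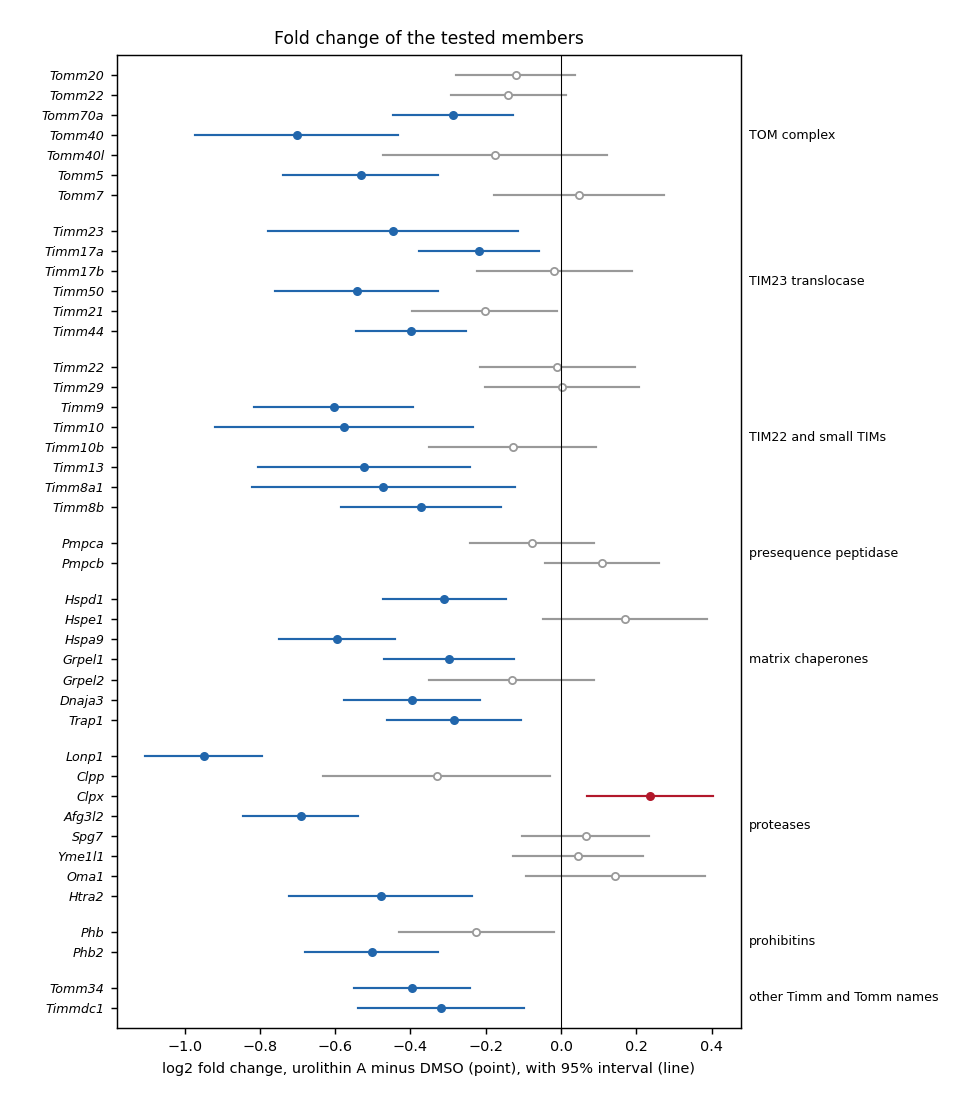
The log2 fold change of each tested member, urolithin A minus DMSO, is a point and its 95% interval a line (blue filled, called lower; red filled, called higher; grey open, not called). Lonp1 lies farthest left at -0.95, 23 members are blue, and Clpx at 0.24 is the one in red.

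Neither subunit of the matrix processing peptidase was called. Pmpca, the subunit that binds presequences, was at 135, 141 and 136 CPM in controls and 127, 121 and 143 CPM in treated libraries, with overlapping groups (log2 fold change -0.08, 95% interval -0.24 to 0.09). Pmpcb, the catalytic subunit, was at 101, 96.5 and 101 CPM against 106, 104 and 112 CPM. All its treated values were above the controls, by a log2 fold change of 0.11 (95% interval -0.04 to 0.26, adjusted p = 0.257). Pmpca shares 874 bases with the opposite-strand gene Inpp5e.

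Of the 7 matrix chaperones 5 were called lower, with a median log2 fold change of -0.30. Hspa9, the mitochondrial Hsp70 that drives import and folding, was at 831, 912 and 871 CPM in controls and 595, 529 and 609 CPM in treated libraries. The groups were far apart relative to their spread, with a log2 fold change of -0.59 (SE 0.07, adjusted p = 2.13e-05). Grpel1, its nucleotide exchange factor, was at 101, 98.9 and 106 CPM against 81.1, 77.4 and 92.2 CPM (log2 fold change -0.30, SE 0.08, adjusted p = 0.0103). Grpel2, the second exchange factor, stood at 22.3, 22.7 and 21.7 CPM against 19.3, 19.05 and 23.2 CPM, with overlap (log2 fold change -0.13, adjusted p = 0.353). Dnaja3, a J protein that stimulates Hspa9, was at 87.1 to 97.8 CPM against 63.0 to 75.7 CPM (log2 fold change -0.40, SE 0.08, adjusted p = 0.00219). The Dnaja3 locus overlaps those of Coro7 (opposite strand) and Vasn (same strand), but its longest transcript shares no stretch of 100 bases or more with another gene. Trap1, the mitochondrial Hsp90, was at 209.8, 199.6 and 197 CPM against 171, 146 and 183 CPM, without overlap (log2 fold change -0.28, SE 0.08, adjusted p = 0.0161, and 0.0725 without DMSO library a). Without the 2 libraries richest in Rn18s, with 2 against 2, neither Grpel1 (log2 fold change -0.31, adjusted p = 0.0932) nor Trap1 (-0.33, adjusted p = 0.0867) was called.

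The chaperonin Hsp60 and its lid Hsp10 are encoded by Hspd1 and Hspe1, neighbours that are read in opposite directions from a shared promoter on chromosome 1. Hspd1 was at 280, 331 and 318 CPM in controls and at 250, 241 and 258 CPM in treated libraries, without overlap (log2 fold change -0.31, SE 0.08, adjusted p = 0.00570). Hspe1 was at 65.3, 75.1 and 68.8 CPM against 66.3, 87.7 and 82.8 CPM, with overlap (log2 fold change 0.17, 95% interval -0.05 to 0.39, adjusted p = 0.221). The ratio of Hspd1 to Hspe1 CPM was thus 4.29, 4.42 and 4.63 with DMSO and 3.77, 2.75 and 3.11 with urolithin A, lower in all 3 treated libraries. Hspe1 was called higher without urolithin A library a (log2 fold change 0.29, adjusted p = 0.0303). The call of Hspd1 was lost without the 2 libraries richest in Rn18s (log2 fold change -0.27, adjusted p = 0.106). Of the Hspd1 transcript 71.1% is shared with 3 pseudogenes, and the pair overlap by 112 bases on opposite strands, so both counts carry that uncertainty.

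The shared promoter is printed because its 2 genes gave different calls. A RefSeq start of Hspd1 lies 216 bases from that of Hspe1, and their promoter windows (250 bases before to 50 after each start) share 285 bases. The window of Hspe1 lies on the plus strand at chr1:55087898-55088197 (GRCm38.p6, RefSeq), with the letters of the heat shock motif (GAANNTTC or TTCNNGAA, each its own reverse complement) in capitals:
Hspe1: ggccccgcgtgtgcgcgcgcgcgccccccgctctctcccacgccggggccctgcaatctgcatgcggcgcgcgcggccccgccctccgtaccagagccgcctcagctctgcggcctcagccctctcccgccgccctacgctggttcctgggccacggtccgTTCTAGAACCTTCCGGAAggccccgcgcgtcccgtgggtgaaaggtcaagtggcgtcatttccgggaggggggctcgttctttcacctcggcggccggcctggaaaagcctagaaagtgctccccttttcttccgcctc
The capitals hold 3 overlapping matches, from 89 to 79 bases before the start of Hspe1 by their first letters. Of the 41 windows found for 38 of the 45 members, 26.8% held a match on either strand. Among all 32851 mouse RefSeq windows of that length, which include non-coding genes, 15.1% did. The matches printed here count once for Hspe1 and again for the overlapping window of Hspd1. No window was found for Hspa9, Afg3l2 and Htra2, which were called lower, nor for Tomm40l, Tomm7, Timm21 and Grpel2. A match describes letters only.

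The proteases held the largest fall and the only member called higher. Of 8 members 3 were called lower and 1 higher, where 16.0% and 17.7% of all genes tested were. The median log2 fold change was -0.14. Lonp1, the Lon protease of the matrix and a protein that also acts as a chaperone, was at 574, 590 and 537 CPM in DMSO libraries a to c. It was at 305, 271 and 306 CPM in urolithin A libraries a to c. The treated values were tightly grouped and all below the lowest control, a fall of 48.2% (log2 fold change -0.95, SE 0.07, adjusted p = 2.50e-07). Over the alternatives its adjusted p stayed below the threshold in all 17.

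The promoter window of Lonp1, the member with the largest fall, lies on the minus strand at chr17:56626854-56627153 (GRCm38.p6, RefSeq). Its capitals mark a match to the E-box CACGTG, which is its own reverse complement and is the core motif of Myc and related factors:
Lonp1: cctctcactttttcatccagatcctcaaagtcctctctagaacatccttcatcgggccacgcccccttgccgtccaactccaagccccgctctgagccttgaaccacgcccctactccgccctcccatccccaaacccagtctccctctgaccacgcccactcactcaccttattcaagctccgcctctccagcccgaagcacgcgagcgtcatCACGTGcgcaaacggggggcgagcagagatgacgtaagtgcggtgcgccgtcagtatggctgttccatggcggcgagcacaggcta
The match starts 36 bases before the gene's start. An E-box was held by 8 of the 38 members with a window, or 19.5% of member windows against 7.15% of all windows. Of these members 5 were among the 20 called lower, and 3 were not (Tomm20 and Phb, not called, and Tomm20l, not tested). A link between the E-box and the falls was not tested. The ETS core (CCGGAAGT, both strands) was in 21.95% of member windows against 3.89% of all, and CCAAT (both strands) in 31.7% against 37.4%. No member window held the ATF4 composite letters TGATGNAAT on either strand, which 0.965% of all windows hold.

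The m-AAA protease of the inner membrane is built from Afg3l2 and Spg7, and the ratio of this pair differed most among those compared. Afg3l2 was at 154, 171 and 159 CPM in controls and 101, 97.05 and 101 CPM in treated libraries (log2 fold change -0.69, SE 0.07, adjusted p = 4.90e-06). Spg7 was at 88.6, 81.7 and 84.7 CPM against 90.3, 81.9 and 95.5 CPM, with overlap (log2 fold change 0.06, 95% interval -0.10 to 0.23). The ratio of Afg3l2 to Spg7 CPM was 1.74, 2.10 and 1.87 in controls and 1.12, 1.18 and 1.06 in treated libraries, a 1.69-fold difference. Every treated value of Afg3l2 lay well below its controls, while for Spg7 1 treated value lay among the controls and 2 above them.

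ClpXP degrades matrix proteins that its unfoldase ring Clpx feeds to the peptidase Clpp. Clpx was at 98.2, 118 and 108 CPM in controls and at 128, 124 and 129 CPM in treated libraries, without overlap (log2 fold change 0.24, SE 0.08, adjusted p = 0.0304). Clpp was at 39.5, 43.8 and 37.6 CPM against 33.4, 24.9 and 39.9 CPM, with overlap at library c (log2 fold change -0.33, 95% interval -0.63 to -0.03, adjusted p = 0.0868, and 0.0110 without urolithin A library c). The Clpx call is weak. Its adjusted p was 0.150 without DMSO library a, 0.0763 without DMSO library c, 0.0885 without urolithin A library a, 0.0585 without urolithin A library c and 0.0784 with the trend on GC content removed. The ratio of Clpp to Clpx CPM was 0.402, 0.373 and 0.347 with DMSO and 0.262, 0.201 and 0.310 with urolithin A, lower in all 3 treated libraries.

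The promoter window of Clpx is shown beside that of Lonp1 because it is the member called in the other direction. It lies on the plus strand at chr9:65294010-65294309 (GRCm38.p6, RefSeq), and its capitals mark the NRF1 core (GCGCATGC or its reverse complement GCATGCGC):
Clpx: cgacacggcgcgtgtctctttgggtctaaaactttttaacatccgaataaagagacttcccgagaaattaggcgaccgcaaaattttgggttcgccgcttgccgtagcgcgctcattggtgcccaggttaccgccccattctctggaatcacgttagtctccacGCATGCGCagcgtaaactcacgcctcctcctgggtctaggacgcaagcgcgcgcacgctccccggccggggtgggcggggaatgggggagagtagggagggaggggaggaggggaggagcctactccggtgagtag
The match starts 86 bases before the gene's start. The NRF1 core was in 7.32% of member windows, from 3 members, against 2.71% of all windows. It does not mark the direction, since Timm13 and Grpel1, the other 2 members that hold it, were both called lower. The Clpx window also held CCAAT and held no E-box, and the Lonp1 window held neither NRF1 core nor CCAAT. Heat shock, ATF4 composite and ETS letters were in neither window.

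The remaining proteases work in or next to the inner membrane. Yme1l1, the i-AAA protease, was at 376, 404 and 443 CPM in controls and 400, 461 and 400 CPM in treated libraries (log2 fold change 0.04, 95% interval -0.13 to 0.22). Oma1, the stress-activated protease that cuts the fusion protein OPA1, was at 17.4, 20.9 and 18.6 CPM against 22.3, 18.5 and 22.003 CPM (log2 fold change 0.14, adjusted p = 0.349). Both overlapped between groups. Htra2, a serine protease of the intermembrane space, was at 32.4 to 34.0 CPM against 19.5 to 27.1 CPM, without overlap (log2 fold change -0.48, SE 0.11, adjusted p = 0.00467). Of its transcript 47.9% is shared with 2 other genes. Its locus overlaps Loxl3 by 1297 bases and Aup1 by 753 bases, both on the opposite strand, and these may be the same stretches.

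Prohibitins form the inner membrane ring that holds the m-AAA protease. Phb2 was at 398, 403 and 370 CPM in controls and at 292, 241 and 297 CPM in treated libraries (log2 fold change -0.50, SE 0.08, adjusted p = 3.13e-04). Phb was at 37.0, 40.2 and 36.3 CPM against 33.8, 28.5 and 35.2 CPM. The groups did not overlap for either, but Phb was not called (log2 fold change -0.23, 95% interval -0.43 to -0.02, adjusted p = 0.0878), and 51.5% of its transcript is shared with other genes. Of the members named Tomm or Timm that lie outside the translocases, both were called lower. Tomm34, a cytosolic cochaperone for precursors, was at 85.6 to 87.1 CPM against 63.0 to 67.2 CPM (log2 fold change -0.40, SE 0.07, adjusted p = 7.05e-04), and its locus overlaps that of Stk4 by 848 bases on the opposite strand. Timmdc1, an assembly factor of respiratory complex I, was at 25.5, 26.3 and 24.7 CPM against 22.4, 18.03 and 21.02 CPM (log2 fold change -0.32, SE 0.10, adjusted p = 0.0276). For Timmdc1 the adjusted p was 0.0743 without DMSO library a, 0.0853 without DMSO library b, 0.0503 without DMSO library c and 0.0852 without urolithin A library b.

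Levels can be set against each other only per length. In CPM per kb of exon, Hspa9 was highest in DMSO at 202, followed by Lonp1 at 130, Hspd1 at 117, Phb2 at 105 and Tomm7 at 97.8. With urolithin A, Hspa9 was at 134, Tomm7 at 102, Hspd1 at 94.4, Phb2 at 74.4 and Lonp1 at 67.2. The lowest tested member was Tomm40l, at 2.05 with DMSO and 1.83 with urolithin A. The Spearman rank correlation across the 42 members between mean CPM and log2 fold change was -0.02, a description over genes of the same 6 libraries.

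**Figure D3:**
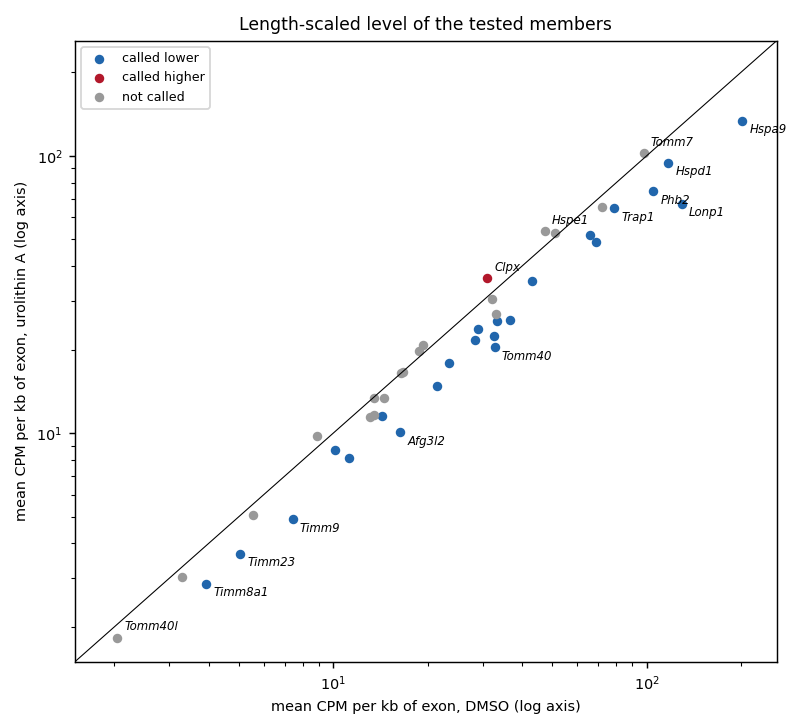
Mean CPM per kb of exon of each tested member with DMSO (horizontal, log axis) and with urolithin A (vertical, log axis), with the line of equal level (blue, called lower; red, called higher; grey, not called). Lonp1 lies farthest below the line, at 130 against 67.2, and Tomm7 lies at 97.8 against 102.

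Ratios between partner members were compared within each library, where a common scaling cancels. A trend along GC content, described below, need not cancel between partners of unlike transcript GC content, such as Clpp (57.8%) and Clpx (44.6%). Of 14 pairs, 8 did not overlap between groups. With 3 libraries against 3, the exact two-sided permutation test cannot go below 0.1, which these 8 reached (0.175 after Benjamini-Hochberg adjustment over the 14), so none could pass the threshold. In log2 units, Afg3l2/Spg7 differed by -0.76, Lonp1/Clpp by -0.63, Clpp/Clpx by -0.56, Tomm40/Tomm40l by -0.54 and Hspd1/Hspe1 by -0.48. Pmpca/Pmpcb and Grpel1/Grpel2 differed by less, at -0.19 and -0.17. Phb/Phb2 went the other way, from 0.0931, 0.0997 and 0.0982 to 0.116, 0.118 and 0.119, a log2 difference of 0.28. The ratio of Timm9 to Timm10, which build 1 complex, was 1.76, 1.71 and 2.02 against 1.86, 2.13 and 1.40, a log2 difference of -0.04 that was 0.12 without urolithin A library c and 0.027 without DMSO library c. The other 5 also overlapped: Timm23/Timm22 at -0.46, Timm17a/Timm17b at -0.20, Tomm20/Tomm70a at 0.17, Oma1/Yme1l1 at 0.10 and Timm8a1/Timm8b at -0.10 (0.016 without urolithin A library b). Pairs that share a gene are not independent.

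**Figure D4:**
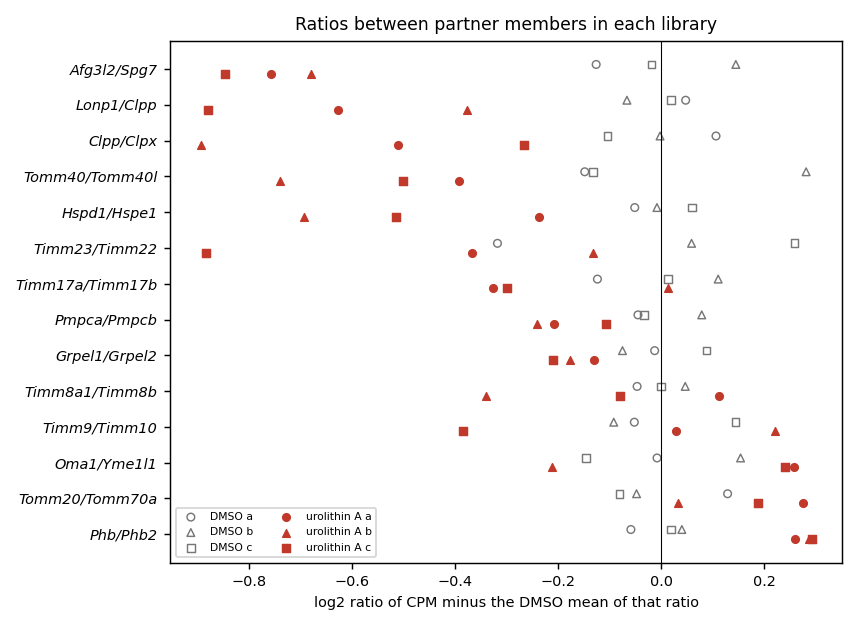
For each of 14 pairs the log2 ratio of CPM in each library is plotted relative to the DMSO mean of that ratio (open grey, DMSO; filled red, urolithin A; the shape gives the letter). Afg3l2/Spg7 lies farthest left, at a mean of -0.76, Phb/Phb2 lies right of its controls by 0.28, and 6 pairs overlap.

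Libraries within a group differed along GC content. Urolithin A library b was the lowest of its group for 31 of 42 members, and library c the highest for 25. The rank correlation across members between a library's deviation from its group mean and transcript GC content was 0.62, -0.02 and -0.66 in DMSO libraries a to c, against 0.63, -0.69 and 0.41 in the treated ones. Between GC content and log2 fold change it was -0.42 over the 42 members and -0.18 over 14393 genes. With the GC trend of each library removed, 25 members were called lower and 0 higher: all 23 were kept, and Tomm22 and Timm21 were added with adjusted p of 0.0183 and 0.00302. At an adjusted p of 0.0784 in that limma fit, Clpx was no longer called.

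Other genes of the same pathway were set beside the members. Of all genes tested, 16.0% were called lower and 17.7% higher. The 19 import partners, such as the MIA40 oxidoreductase and the sorting machinery, had a median log2 fold change of -0.06. Of them, 2 (10.5%) were called lower and none higher. They were Chchd4, which encodes MIA40, the importer of small TIMs (log2 fold change -0.49, SE 0.12, adjusted p = 0.00602), and Mipep, a second presequence peptidase (log2 fold change -0.35, SE 0.09, adjusted p = 0.00618). Of 9 other mitochondrial proteases and their scaffolds, 3 (33.3%) were lower and 1 higher (median -0.12). Stoml2, a scaffold of inner membrane proteases, was at -0.43 (adjusted p = 0.00106), and Afg3l1, another m-AAA subunit in mice, was at -0.32 (adjusted p = 0.0231). Lactb, a filament-forming serine protease, rose by 0.59 (adjusted p = 1.36e-04), and Atp23 was at -0.55 (adjusted p = 0.00664). Afg3l1 was named after its value was seen. In the MICOS complex of the cristae, 1 of 7 (14.3%) was lower (Micos13, -0.26, adjusted p = 0.0310), with a median of -0.16.

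Many genes of the mitochondrial ribosome were also lower, while transcripts of the mitochondrial genome were not called. Of 77 Mrpl and Mrps genes 31 (40.3%) were called lower and 1 higher, where 16.0% and 17.7% of all genes tested were. Their median log2 fold change was -0.22. Mrps18b was at 25.7 ± 2.19 CPM in controls and 15.5 ± 0.713 CPM in treated libraries (SD, n = 3 each, log2 fold change -0.73, limma adjusted p = 9.35e-05). Mrpl17 was at -0.49 (adjusted p = 3.32e-04), and Mrps6 rose by 0.43 (adjusted p = 0.00342). None of the 7 protein genes of the mitochondrial genome that the table holds was called by limma, adjusted or at an unadjusted p under 0.05. Their median was 0.19. Their SEs were 0.229 (mt-Co1) to 0.394 (mt-Nd2), so a log2 fold change of -0.22 could not have been called for them. Their summed level was 2877 to 3727 CPM in controls and 2783 to 4790 CPM in treated libraries, and of these mt-Cytb was at 282, 536 and 283 CPM in urolithin A libraries a to c, highest in library b.

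Of 5 regulators of mitochondrial and integrated stress responses, 4 were called lower (80%, against 16.0% of all genes tested). Their median log2 fold change was -0.48. Ddit3, which encodes CHOP, was at 40.4 ± 1.05 CPM in controls and 19.1 ± 0.787 CPM in treated libraries (SD, n = 3 each, log2 fold change -1.07, SE 0.09, limma adjusted p = 5.33e-07). Atf4, the effector of the integrated stress response, was at 538 ± 16.8 CPM against 291 ± 26.4 CPM (log2 fold change -0.89, SE 0.08, limma adjusted p = 6.91e-07). The other called regulators were Cebpb at -0.48 and Hsf1, the heat shock factor, at -0.26 (adjusted p = 0.0194 and 0.0441), while Atf5 was at -0.37 and was not called (adjusted p = 0.0689). These 3 were named after their values were seen.

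Chaperones outside mitochondria were compared as well, beside 16.0% of all genes tested called lower and 17.7% called higher. Of 10 tested cytosolic chaperones 6 were lower and none higher, with a median log2 fold change of -0.33. Hsp90aa1, an inducible Hsp90, was at -0.62 (adjusted p = 4.14e-05) and Hspa8, the constitutive Hsc70, at -0.38 (adjusted p = 9.05e-04). Of 9 tested genes of the CCT chaperonin, which folds actin and tubulin, 8 were lower, with a median of -0.31. Tcp1 was at -0.37 (adjusted p = 5.91e-04) and Cct7 at -0.45 (adjusted p = 9.12e-04). In the endoplasmic reticulum 4 of 14 (28.6%) were lower and 2 higher, and the median was -0.04. Hsp90b1, the Hsp90 of that compartment, was at -0.30 (adjusted p = 0.00526) and Creld2 at -0.31 (adjusted p = 0.0181), while Dnajc3 and Pdia3, a J protein and a disulphide isomerase, rose by 0.24 and 0.23 (adjusted p = 0.0160 and 0.0185). No difference between these lists and the members was tested.

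**Figure D5:**
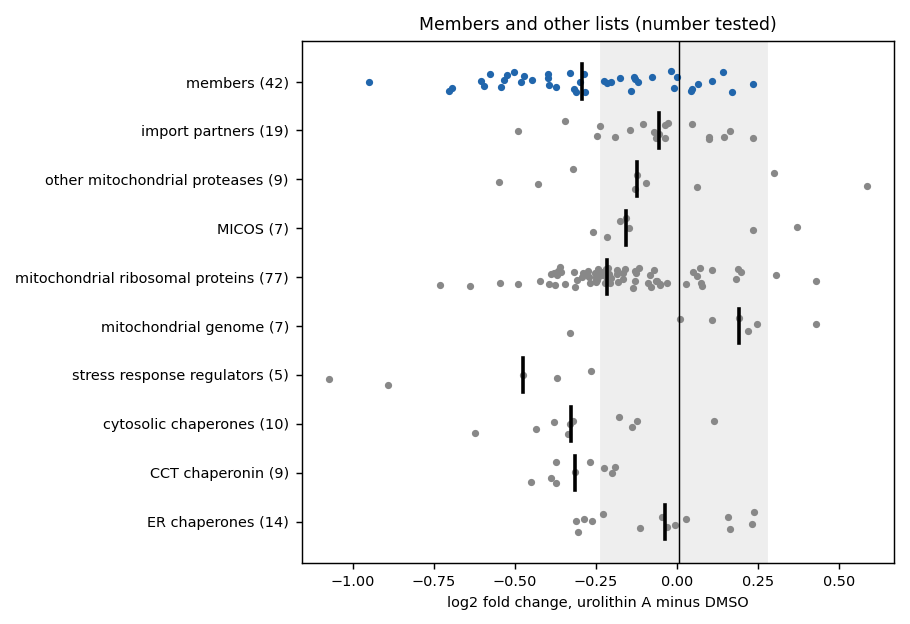
Each point is the log2 fold change of 1 tested gene, urolithin A minus DMSO, by list with the number tested, the thick bar is the list's median, the thin line the median of all 14444 genes and the grey band their middle quartiles (-0.23 to 0.28). The members' median is -0.29, that of the CCT chaperonin -0.31 and that of the endoplasmic reticulum chaperones -0.04.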

How the data were processed

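Per the labels' protocols, column-purified RNA was made into stranded, mRNA-focused libraries. Per the submitters' processing notes, bcl2fastq 2.20.0.422, FastQC, STAR 2.5.2a (mm10) and DESeq2 were used. Counting program, strand setting and annotation: not given in the sources used here. Values the authors deposited are whole numbers per gene written with a decimal comma. No label names their unit, so it is recorded as other, and they were treated as read counts. They were tested with limma voom. Both of the 2 deposited files hold the same values, and 3 columns matching no labelled sample were left out.

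Genes were kept that had 10 or more counts, scaled to the median library, in 3 libraries and 15 in all. Scaling was by trimmed means of M values (30% of M, 5% of A). CPM is per 1e6 scaled counts, and log2 fold changes and moderated SEs come from voom (offset 0.5) and robust eBayes (limma 3.58.1, R 4.3.3), with only the group in the model, tested on simulated data. Exon length, GC content and shared transcript sequence (97% identity over 100 bases or more on either strand, BLAST) came from GENCODE M21. Locus overlaps came from the coordinates of the deposited table. Coordinates in the deposited table follow a build not named in the sources used here, so only promoter coordinates are printed. Intervals are at the 95% level. Members and lists were chosen with earlier results of these data known. Per-library values are given for the 6 called members of largest and the 6 of smallest fold change, for partner pairs and for the least changed member of each role, and for other lists the 2 called genes of smallest p in each direction are named.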

Additional observations from a re-analysis of the deposited data

How the results depend on the processing

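Members called lower numbered 19 to 22 with 1 library left out and genes called 3485 to 5140. The members' median log2 fold change then ran from -0.33 (without urolithin A library c) to -0.23 (without urolithin A library b). Total count scaling gave 3169 genes called, 10 members called lower, 0 called higher and 13 with all treated values below the controls (10.1% of all genes). Without the 2 libraries richest in Rn18s there were 2522 genes called, 13 members lower, 0 higher and, at 2 against 2, 4 wholly above the controls (29.4% of all genes) and 28 below (30.0%). Members called higher ranged from 0 to 1 with 1 library left out, and were 0 with the GC trend removed, an alternative chosen after seeing the data. The causes were not tested, except that fewer libraries leave fewer degrees of freedom. Same-lettered libraries did not deviate together (correlations 0.07, -0.14 and -0.08 for a, b and c). With the letter as replicate block, 4496 genes, 20 members lower and 1 higher were called, and Timm23, Timm17a and Timm8a1 were lost (adjusted p = 0.0526, 0.0605 and 0.0712). Of the 14 partner ratios 12 kept their direction in all alternatives run on them, while with 1 library left out Timm9/Timm10 ranged from -0.18 to 0.12 and Timm8a1/Timm8b from -0.21 to 0.016.

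Signs changed for 6 uncalled members near 0. Under total count scaling the log2 fold change was 0.075 for Timm17b, 0.085 for Timm22 and 0.013 for Pmpca. With the GC trend removed it was -0.023 for Tomm7, -0.067 for Yme1l1 and -0.0049 for Timm29. Timm22 was at 0.0030 with a filter of 50 counts. Timm29 was at -0.0078 with median of ratios scaling, -0.0068 with no filter, -0.0021 and -0.0022 with limma trend on log2 of CPM plus 1 and plus 0.1, and -0.0072 without the Rn18s-rich libraries. With 1 library left out the range was -0.020 to 0.18 for Tomm7, -0.072 to 0.095 for Timm17b, -0.086 to 0.068 for Timm22, -0.063 to 0.090 for Timm29 and -0.019 to 0.11 for Yme1l1. Of all member values under alternatives, 632 kept direction and side of the threshold, 53 lost a call, 5 gained one and 24 changed sign. Timm8a1 and Timm23, at 3.57 to 10.3 CPM, lost the call in 8 and 7 alternatives, and Timm17a and Clpx, at higher CPM, in 7 each, and the part of depth was not tested.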
